A study of Homo sapiens with 18 samples.

Results

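The BCL2 family is the set of proteins that sets the threshold for mitochondrial apoptosis. Its 10 core genes were taken by symbol from the count table of NCI-H1299 lung cancer cells transfected with members of the TBX2 subfamily of T-box transcription factors. These are BCL2, BCL2L1, BCL2L2, MCL1, BAX, BAK1, BID, BAD, BCL2L11 and PMAIP1, and the choice used no measured value. They are 10 of 63677 genes in the table, and all 10 passed the filter on low counts that left 15576 genes for testing.

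Guardian proteins (BCL2, BCL-XL from BCL2L1, BCL-W from BCL2L2, and MCL1) hold the outer mitochondrial membrane closed. The effectors BAX and BAK, the latter from BAK1, open pores in that membrane once released, so that cytochrome c leaks out and caspases are activated. BH3-only proteins (BID, BAD, BIM from BCL2L11 and NOXA from PMAIP1) sense stress and either neutralize guardians or activate effectors, and NOXA binds mainly MCL1.

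The study asked how re-expression of TBX2, TBX3, TBX4 or TBX5 changes the transcriptome of a lung cancer line. NCI-H1299 is a human non-small cell lung cancer line. The 18 RNA-seq libraries fall into 6 groups of 3. A pair of groups are controls, cells given an empty vector (EV) and cells labelled Ctl, whose treatment the labels do not name. The other 4 groups received plasmids for human TBX2, human TBX3, human TBX4 or mouse Tbx5, here called TBX5. TBX2 and TBX4 were Flag-tagged in a pORF vector, whereas TBX3 and Tbx5 were HA-tagged in a pCGN vector. All plasmids were given transiently with Lipofectamine 2000, which reached only some of the cells, so each value averages transfected and untransfected cells. In such bulk libraries, less RNA of a gene per cell and fewer cells that express it cannot be told apart. Nothing in the labels says that the 3 libraries of a group came from separate cultures, so p-values measure only the spread between these libraries.

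The libraries held 7365221 to 11743179 counts, and a single gene with no symbol, ENSG00000266658, took 10.7% to 53.5% of them. Library sizes were therefore scaled by TMM, and levels are given as CPM, counts brought to a common scaled library size. A count of 3, taken as the floor of detection, equals 0.191 to 0.593 CPM, which covers counting error only. The transfected genes were checked first. TBX2 held 27704 to 47916 counts in its own 3 libraries and at most 59 in any other. TBX3 held 135416 to 320890 in its own libraries and at most 119 elsewhere. TBX4 held 85197 to 109159 and at most 19 elsewhere, and TBX5 held 1161 to 1302 and at most 1 elsewhere. The TBX5 plasmid carried the mouse gene and reads were mapped on the human genome, so its count may miss reads. It cannot be set against those of the other plasmids. The library labelled 4c-TBX5 was numbered with the TBX4 libraries and held 85197 TBX4 counts and 1 TBX5 count. It was therefore kept as replicate c of TBX4. Calls that rest on TBX4 libraries are also given without it, except those of listed genes among the 4 plasmids. The lung adenocarcinoma markers NKX2-1, NAPSA and SFTPB were near 0 in these cells, with at most 10 counts in any library, and the epithelial genes EPCAM and CDH1 had at most 3, whereas KRT8 had 119 to 613 counts and KRT18 had 292 to 1155. PTPRC, a leukocyte marker, had at most 4 counts and COL1A1, a fibroblast marker, at most 6.

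The sequences just before the start sites of PMAIP1 and BCL2L1 are shown because the results turn on these genes. That of BAD is shown because it alone among the members searched carried a T-box motif. Windows of 250 bases upstream of a start, from RefSeq on GRCh38.p14, were at hand for 8 of the 10 members, not for BCL2L2 and MCL1. Each is written 5′ to 3′ on the coding strand in lower case, with any motif match in capitals. The PMAIP1 window is chr18:59899746-59899995 on the plus strand. BCL2L1 has 2 start sites, with windows chr20:31723964-31724213 and chr20:31722869-31723118 on the minus strand. BAD has 2 start sites with overlapping windows, of which only chr11:64284705-64284954 on the minus strand is shown.
PMAIP1: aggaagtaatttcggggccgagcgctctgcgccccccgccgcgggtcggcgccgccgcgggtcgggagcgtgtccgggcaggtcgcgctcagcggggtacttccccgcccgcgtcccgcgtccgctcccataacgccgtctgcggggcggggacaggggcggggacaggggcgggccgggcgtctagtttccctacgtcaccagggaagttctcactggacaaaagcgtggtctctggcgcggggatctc
BCL2L1, first start site: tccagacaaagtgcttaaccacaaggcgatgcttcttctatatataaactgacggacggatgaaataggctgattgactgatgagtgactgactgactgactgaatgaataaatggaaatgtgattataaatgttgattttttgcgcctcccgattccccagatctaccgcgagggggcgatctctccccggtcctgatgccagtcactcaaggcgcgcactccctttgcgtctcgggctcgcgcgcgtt
BCL2L1, second start site: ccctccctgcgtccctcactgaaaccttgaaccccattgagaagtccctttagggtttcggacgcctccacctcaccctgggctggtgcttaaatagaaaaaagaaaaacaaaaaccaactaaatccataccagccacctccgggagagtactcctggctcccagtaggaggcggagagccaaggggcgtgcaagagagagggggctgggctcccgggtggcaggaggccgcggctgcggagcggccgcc
BAD: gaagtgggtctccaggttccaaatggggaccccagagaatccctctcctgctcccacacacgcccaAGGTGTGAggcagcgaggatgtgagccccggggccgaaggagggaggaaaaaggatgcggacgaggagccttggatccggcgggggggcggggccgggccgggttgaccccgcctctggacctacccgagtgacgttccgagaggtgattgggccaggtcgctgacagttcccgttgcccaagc

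The windows were searched on both strands for 4 motifs: the T-box binding motif AGGTGTGA, its core GGTGTG, which lies within it, the cyclic AMP response element TGACGTCA and the interferon response core, in which 2 bases of any kind separate GAAA from a second GAAA. BAD held AGGTGTGA, which begins 184 bases before the start in the window shown and 223 bases before the start in its other window. Over all 35116 windows of this length, AGGTGTGA was found in 0.786%, GGTGTG in 14.2%, TGACGTCA in 1.65% and the interferon response core in 3.02%. None of the 4 motifs was found in the windows of PMAIP1, BCL2L1, BAX, BAK1, BID, BCL2L11 or BCL2, which says only that these letters are not in these 250 bases. BAD was not called in any of the 4 comparisons of a TBX plasmid with the controls.

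In the 6 control libraries, the guardian MCL1 was the most abundant member per unit of transcript length, and BCL2 itself the least. Levels between genes are compared as RPKM, CPM divided by the length in kilobases of each gene's canonical transcript. MCL1 stood at 33.1 ± 1.51 RPKM (SD, n = 6) and BCL2L1 at 20.1 ± 1.24. BAX followed at 11.6 ± 1.76, BAD at 8.01 ± 1.25, BID at 5.19 ± 0.438 and PMAIP1 at 5.14 ± 1.62. BAK1 was at 4.15 ± 0.457, BCL2L2 at 3.01 ± 0.184, BCL2L11 at 1.23 ± 0.10 and BCL2 at 0.390 ± 0.0731. The ranges of neighbours in this order overlapped for BAX and BAD, BID and PMAIP1, PMAIP1 and BAK1, and BAK1 and BCL2L2. The order below BCL2L1 depends on the length used, since over the union of all exons BAX moved from rank 3 to rank 6 and PMAIP1 from rank 6 to rank 3. BCL2, with 13 to 46 counts per library, was the least precisely measured member.

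**Figure D1:**
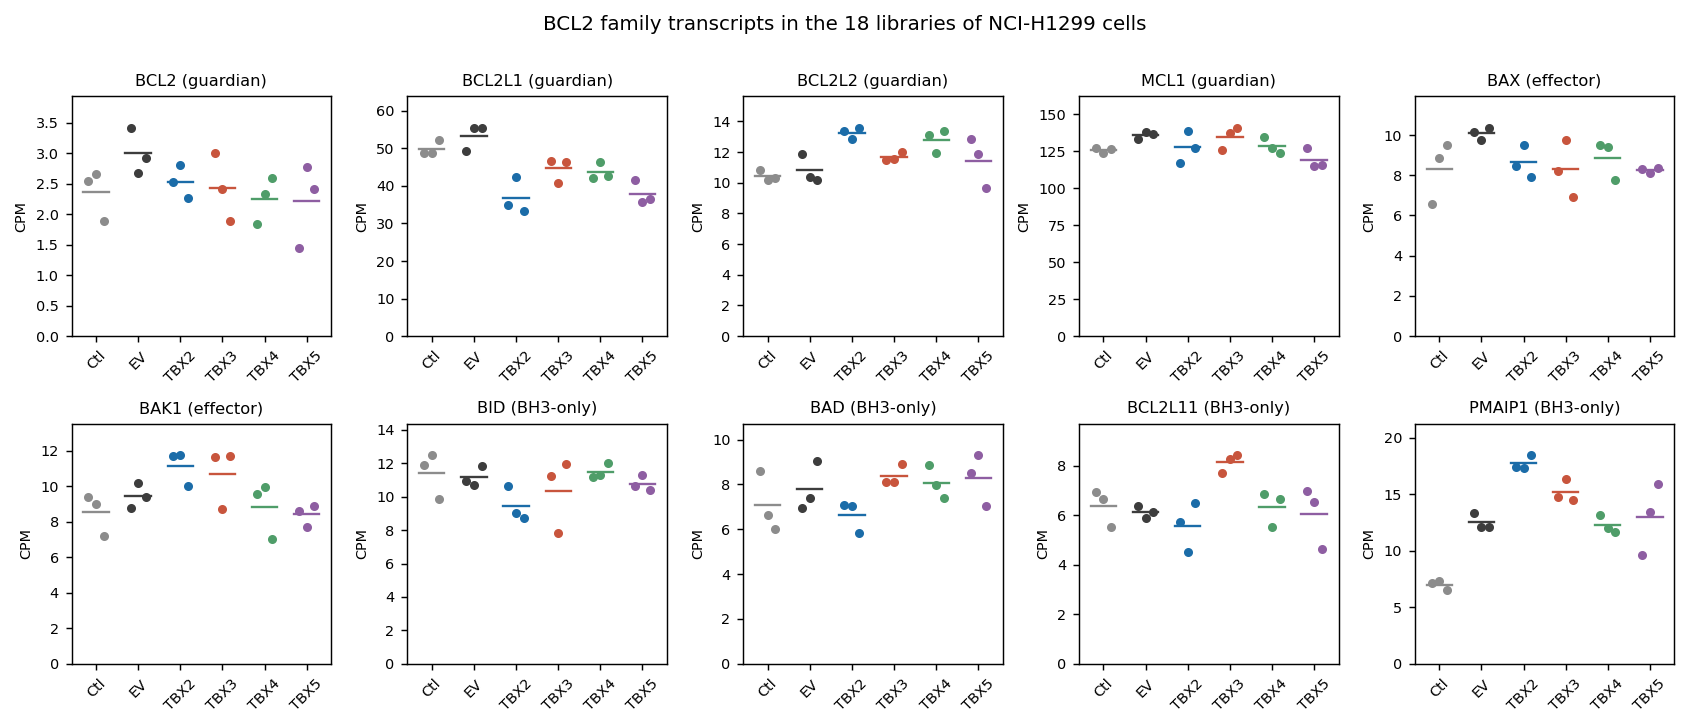
Level of each of the 10 BCL2 family genes in CPM (vertical axis, from 0) in each library, by group (horizontal axis). Points are single libraries and short lines are group means of 3. All 12 TBX libraries lie below all 6 controls for BCL2L1, and the 3 EV libraries lie above the 3 Ctl libraries for PMAIP1.

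BCL2L1 (ENSG00000171552, chromosome 20, 30252255 to 30311792 on the minus strand of GRCh37), which encodes the guardian BCL-XL, was lower with each of the 4 TBX plasmids. In the controls it had 48.7, 48.8 and 52.3 CPM (Ctl) and 49.4, 55.5 and 55.4 CPM (EV). With TBX2 it had 35.0, 42.3 and 33.3 CPM and with TBX5 41.6, 35.6 and 36.5 CPM. With TBX3 it had 46.6, 40.9 and 46.4 CPM and with TBX4 42.1, 46.4 and 42.7 CPM. All 12 TBX libraries were below the lowest control, and the 4 lowest were replicates a and c of TBX2 and b and c of TBX5.

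Each TBX group was compared with the 6 pooled controls in edgeR, whose quasi-likelihood p-values were adjusted over all 15576 genes by the Benjamini-Hochberg method, at a threshold of 0.1, and all fold changes are on the log2 scale. BCL2L1 fell by 0.48 ± 0.079 (SE) with TBX2 (adjusted p 9.14e-05 by edgeR). It fell by 0.44 ± 0.075 with TBX5 (adjusted p 0.000635 by edgeR). This is 28.1% lower with TBX2 and 26.2% lower with TBX5. The decreases with TBX4, 0.25 ± 0.064 (edgeR adjusted p 0.0157), and TBX3, 0.21 ± 0.067 (edgeR adjusted p 0.0511), were smaller. BCL2L1 is among the genes that the study listed as lower with all 4 plasmids, a list chosen on these samples, so these calls are not independent evidence of its direction.

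The BCL2L1 decrease held against each kind of control with TBX2 and TBX5. Against EV alone the log2 fold changes were -0.52, -0.26, -0.30 and -0.49 with TBX2, TBX3, TBX4 and TBX5, and each passed the threshold (edgeR adjusted p 0.000436, 0.0362, 0.0105 and 0.00193). Against Ctl alone they were -0.43, -0.16, -0.19 and -0.39, and those with TBX3 (edgeR adjusted p 0.243) and TBX4 (edgeR adjusted p 0.103) did not pass. EV and Ctl themselves differed by 0.10 ± 0.069 (edgeR adjusted p 0.687), and their ranges overlapped. Leaving out each library in turn kept BCL2L1 past the threshold in every fit with TBX2, TBX4 and TBX5. Without replicate b of TBX3, the decrease with TBX3 was 0.15 and did not pass (edgeR adjusted p 0.246). Without the library labelled 4c-TBX5, the log2 fold change with TBX4 was -0.23 (edgeR adjusted p 0.0749). Scaled by unadjusted library totals, which moved the median log2 fold change of all genes by 0.25 with TBX4, BCL2L1 stood at 0.01 with TBX4 (edgeR adjusted p 0.962). Under that scaling its log2 fold changes with TBX2, TBX3 and TBX5 were -0.47, -0.28 and -0.74, and none passed (edgeR adjusted p 0.144, 0.999 and 0.169). The medians of all genes were then 0.0071, -0.079 and -0.31 with these plasmids.

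A ratio of counts within a library does not depend on how libraries are scaled. MCL1 had 2.53 ± 0.103 counts per BCL2L1 count in the controls (SD, n = 6, range 2.418 to 2.698). In groups of 3, the ratio was 3.48 ± 0.291 (SD) for the TBX2 plasmid and 3.14 ± 0.0853 for the TBX5 plasmid, and it was 3.03 ± 0.328 and 2.94 ± 0.238 for TBX3 and TBX4. The 12 TBX libraries ranged from 2.700 to 3.81, and all 12 were above the highest control, although replicate a of TBX3, at 2.700, was only just so. Other ratios were also computed, and none of them had all 12 above. There were 11 for BAK1 to BCL2L1, 10 for PMAIP1 to BCL2L1 and 9 for BCL2L11 to BCL2L1. PMAIP1 to MCL1 had 8, BAX to BCL2L1 and BAK1 to MCL1 had 7 each, and BAX to BAK1 had 0. The MCL1 to BCL2L1 ratio uses the same BCL2L1 counts as the decrease above, so it is no separate evidence.

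**Figure D2:**
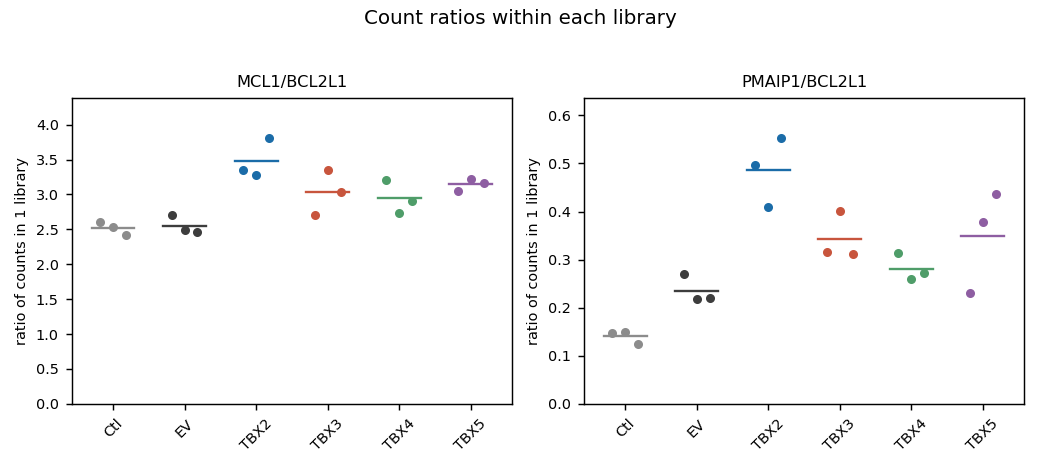
Ratio of MCL1 to BCL2L1 counts (left) and of PMAIP1 to BCL2L1 counts (right) within each library (vertical axes, no unit), by group (horizontal axis). Points are libraries and lines are means of 3. The MCL1 ratio of all 12 TBX libraries lies above the control range of 2.418 to 2.698, and the PMAIP1 ratio is highest with TBX2.

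MCL1 (ENSG00000143384), the short-lived guardian that NOXA opposes, did not pass the threshold with any plasmid. It ranged from 124 to 138 CPM in the 6 controls and from 115 to 141 CPM in the 12 TBX libraries, and the ranges overlapped for every plasmid. The log2 fold changes were -0.03 ± 0.063 for TBX2, 0.04 ± 0.057 for TBX3, -0.03 ± 0.054 for TBX4 and -0.13 ± 0.060 for TBX5 (edgeR adjusted p 0.183 to 0.808). Their 95% intervals lay between -0.25 and 0.16.

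BCL2L2 (ENSG00000129473), which encodes the guardian BCL-W, was higher with TBX2 and TBX4. The controls had 10.8, 10.2 and 10.3 CPM (Ctl) and 11.8, 10.4 and 10.2 CPM (EV). TBX2 libraries had 13.4, 12.8 and 13.6 CPM and TBX4 libraries 13.1, 12.0 and 13.4 CPM, in both cases all above the highest control. It rose by 0.32 ± 0.098 with TBX2 (edgeR adjusted p 0.0172) and by 0.27 ± 0.091 with TBX4 (edgeR adjusted p 0.0644). With TBX3 and TBX5 the log2 fold changes were 0.15 ± 0.098 and 0.13 ± 0.115 (edgeR adjusted p 0.377 and 0.540). The TBX4 call was lost without the library labelled 4c-TBX5 (0.24, edgeR adjusted p 0.198), without replicate a of TBX4 (0.26, edgeR adjusted p 0.188) and without replicate b of Ctl (0.26, edgeR adjusted p 0.107). It was also lost against EV alone (0.25, edgeR adjusted p 0.192), against Ctl alone (0.29, edgeR adjusted p 0.106) and with DESeq2 (0.27, adjusted p 0.190). Library totals without ENSG00000266658 and the share of that gene as a covariate lost it too (edgeR adjusted p 0.106 and 0.170), as did a fit without the filter on low counts. With unadjusted library totals the TBX2 call was lost (0.33, edgeR adjusted p 0.462). Of its exonic bases, 23.35% overlap PPP1R3E, on the other strand, or the read-through gene BCL2L2-PABPN1, and reads there cannot be assigned to BCL2L2 by these counts.

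BCL2 (ENSG00000171791), the founding guardian, was at 2.68 ± 0.503 CPM in the controls (SD, n = 6) and between 1.44 and 3.00 CPM in the TBX libraries. Its log2 fold changes were -0.06 for TBX2, -0.20 for TBX3, -0.27 for TBX4 and -0.38 for TBX5, with standard errors of 0.20 to 0.26, so that a difference of this size was not detectable at this depth.

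Of the effectors, BAK1 rose with TBX2, and BAX passed with no plasmid. BAX (ENSG00000087088) had 6.55 to 10.4 CPM in the controls and 6.94 to 9.78 CPM in the TBX libraries, and none of its 4 log2 fold changes, from -0.20 to -0.05, passed the threshold (edgeR adjusted p 0.426 to 0.858). BAK1 (ENSG00000030110) rose by 0.32 ± 0.116 with TBX2 (edgeR adjusted p 0.0445). The TBX2 libraries had 11.7, 11.7 and 10.0 CPM, against 9.38, 9.03 and 7.22 (Ctl) and 8.77, 10.2 and 9.42 (EV), so that the third overlapped the controls. The BAK1 call with TBX2 was lost without replicate a (0.29, edgeR adjusted p 0.151) or replicate b of TBX2 (0.28, edgeR adjusted p 0.163), against EV alone (0.26, edgeR adjusted p 0.166) and with DESeq2 (0.31, adjusted p 0.109). BAK1 also lost that call with unadjusted library totals (0.33, edgeR adjusted p 0.491) and without the filter on low counts. Its log2 fold change with TBX3, 0.27 ± 0.119, did not pass (edgeR adjusted p 0.154), and those with TBX4 and TBX5 were -0.02 and -0.09. The annotation holds 2 numbered pseudogenes of BAK1, with which it may share reads.

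PMAIP1 (ENSG00000141682, chromosome 18, 57567228 to 57571537 on the plus strand of GRCh37), which encodes the MCL1 antagonist NOXA, had the largest called change of any member with TBX2 and with TBX3 against the pooled controls, and in EV against Ctl. The Ctl libraries had 7.13, 7.34 and 6.52 CPM and the EV libraries 13.3, 12.1 and 12.2 CPM. TBX2 libraries had 17.4, 17.4 and 18.5 CPM and TBX3 libraries 14.8, 16.4 and 14.5 CPM. TBX4 libraries had 13.2, 12.0 and 11.6 CPM and TBX5 libraries 9.62, 13.5 and 16.0 CPM. The Ctl libraries were the lowest and those of TBX2 the highest, TBX4 libraries lay at the EV level, and those of TBX5 were on both sides of it.

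Between the 2 kinds of control, PMAIP1 was higher in EV by 0.83 ± 0.119, or 1.78-fold (edgeR adjusted p 0.000552), and it was the only member called there. In that comparison 0.282% of all genes were called higher and 0.103% lower, so that PMAIP1 is 1 of 44 genes higher in EV. Against the pooled controls, PMAIP1 rose by 0.85 ± 0.166 with TBX2 (edgeR adjusted p 0.000538) and by 0.63 ± 0.165 with TBX3 (edgeR adjusted p 0.0155). The log2 fold changes with TBX4 and TBX5, 0.32 ± 0.157 and 0.36 ± 0.207, did not pass (edgeR adjusted p 0.218 and 0.323). The TBX3 call was lost with DESeq2 (0.63, adjusted p 0.116) and with unadjusted library totals (0.52, edgeR adjusted p 0.999). In 1 edgeR fit of all 18 libraries, PMAIP1 also passed with TBX4 (0.39, edgeR adjusted p 0.0191) and TBX5 (0.42, edgeR adjusted p 0.0287). Without the library labelled 4c-TBX5, it stood at 0.36 with TBX4 (edgeR adjusted p 0.254), and BCL2L1 was then the only member called there.

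The PMAIP1 result depended on which controls were used. Against EV alone, the log2 fold change was 0.51 with TBX2 (edgeR adjusted p 0.00204), 0.27 with TBX3 (edgeR adjusted p 0.125), -0.02 with TBX4 (edgeR adjusted p 0.935) and 0.01 with TBX5 (edgeR adjusted p 0.989). Against Ctl alone, it was 1.33, 1.10, 0.81 and 0.84 with TBX2, TBX3, TBX4 and TBX5, and all 4 passed (edgeR adjusted p 6.01e-07, 7.57e-06, 0.000166 and 0.0103). Only TBX2 passed against both EV alone and Ctl alone. Within libraries, there were 0.141 ± 0.0138 PMAIP1 counts per BCL2L1 count in Ctl, 0.236 ± 0.0294 in EV and 0.487 ± 0.0722 with TBX2 (SD, n = 3 each). The ratio was 0.343 ± 0.0498 with TBX3, 0.281 ± 0.0281 with TBX4 and 0.349 ± 0.106 with TBX5.

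**Figure D3:**
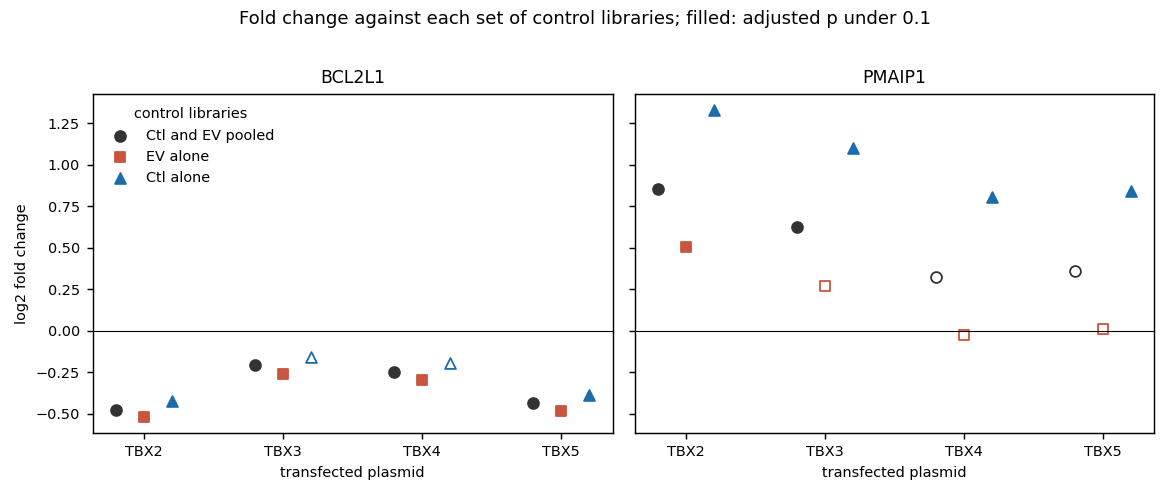
Log2 fold change (vertical axis) of BCL2L1 (left) and PMAIP1 (right) for each TBX plasmid (horizontal axis) against Ctl and EV pooled, EV alone or Ctl alone. Filled symbols passed an adjusted p of 0.1 by edgeR's quasi-likelihood test. BCL2L1 is negative against every set, whereas PMAIP1 with TBX4 and TBX5 is near 0 against EV and 0.81 and 0.84 against Ctl.

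Interferon-induced transcripts moved with PMAIP1. Over the 18 libraries, the 3 tested genes whose log2 CPM followed PMAIP1 most closely were IFIT2, IFIT3 and IFIT1, with Pearson's r of 0.95, 0.94 and 0.93. These 3 are antiviral genes induced by interferon and by foreign nucleic acid, and all the points share the same libraries and scaling. IFIT2 was at 1.89 ± 0.0989 CPM in Ctl, 8.58 ± 1.27 in EV and 23.1 ± 5.53 with TBX2 (SD, n = 3 each), and at 11.1 ± 3.00, 8.78 ± 0.755 and 8.92 ± 1.27 with TBX3, TBX4 and TBX5. Of a list of 10 interferon genes, 7 were tested, and 6 of these rose in EV over Ctl and 7 with TBX2 over the controls, with medians of 1.51 and 1.96, where 0.282% and 17.0% of all genes were called higher. Against the pooled controls, edgeR called 4, 2 and 1 of the 7 higher with TBX3, TBX4 and TBX5. The shares of all genes called higher were 8.47%, 6.98% and 6.56%. With TBX4, 1 of the 7 rose without the library labelled 4c-TBX5. DESeq2 called 6, 1, 0 and 1 of the 7 higher with TBX2, TBX3, TBX4 and TBX5, and 5 in EV over Ctl. The counts with TBX plasmids are against EV and Ctl pooled, so they do not measure a rise over EV. The list was drawn up as a sign of the transfection itself, with earlier results of these data known, and the part of that response in the PMAIP1 levels was not tested.

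**Figure D4:**
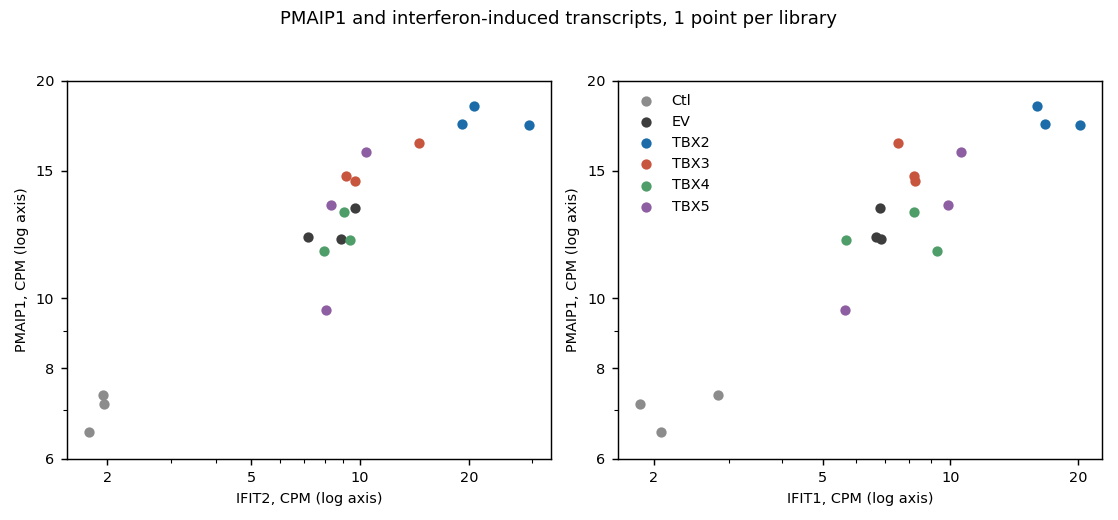
PMAIP1 level (vertical axis, CPM, log axis) against that of IFIT2 (left) and IFIT1 (right; horizontal axes, CPM, log axes), 1 point for each of the 18 libraries, coloured by group. Ctl libraries lie at the lower left and TBX2 libraries at the upper right, with EV, TBX3, TBX4 and TBX5 between them.

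BCL2L11 (ENSG00000153094), which encodes the BH3-only activator BIM, was higher with TBX3. TBX3 libraries had 7.71, 8.27 and 8.41 CPM, all above the controls, which had 6.94, 6.64 and 5.54 CPM (Ctl) and 6.38, 5.89 and 6.11 CPM (EV). The rise was 0.39 ± 0.120 (edgeR adjusted p 0.0389), and it was lost without replicate b (0.38, edgeR adjusted p 0.102) or replicate c of TBX3 (0.35, edgeR adjusted p 0.190), with DESeq2 (adjusted p 0.114) and against Ctl alone (0.35, edgeR adjusted p 0.155). It was also lost with unadjusted library totals (0.31, edgeR adjusted p 0.999) and without the filter on low counts. With TBX2 the libraries had 5.72, 4.51 and 6.47 CPM, a log2 fold change of -0.20 ± 0.145 (edgeR adjusted p 0.352). Of the exonic bases of BCL2L11, 10.78% overlap MIR4435-2HG.

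BID (ENSG00000015475), which caspase 8 cleaves to link death receptors to mitochondria, had a log2 fold change of -0.25 ± 0.113 with TBX2, just outside the threshold (edgeR adjusted p 0.106). TBX2 libraries had 10.6, 9.03 and 8.74 CPM, of which only the first lay within the control range of 9.89 to 12.5 CPM. BAD (ENSG00000002330), which growth factor signalling keeps phosphorylated and inactive, ranged from 5.83 to 9.30 CPM over all 18 libraries, and its 4 log2 fold changes, from -0.16 to 0.17, did not pass (edgeR adjusted p 0.462 to 0.705). Of the exonic bases of BAD, 23.65% overlap GPR137.

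Across the family, 3 members rose and 1 fell with TBX2, where 17.0% of all genes were called higher and 15.6% lower. With TBX3, 2 rose and 1 fell, where 8.47% of all genes were called higher and 6.40% lower. With TBX4, 1 rose and 1 fell (6.98% and 6.07% of all genes), and with TBX5, 1 fell and BCL2L1 was the only member called (6.56% and 6.12% of all genes). The members' median log2 fold changes were -0.07, 0.10, -0.0041 and -0.09, and those of all genes tested were -0.0013, -0.0021, -0.0058 and -0.0030. All 3 libraries lay beyond all 6 controls for 3, 3, 2 and 1 members with TBX2, TBX3, TBX4 and TBX5, where 24.5%, 14.5%, 12.6% and 14.0% of all genes did. With so few members, shares of 40%, 30%, 20% and 10% called in either direction rest on 4, 3, 2 and 1 genes. The 4 comparisons share the 6 control libraries.

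**Figure D5:**
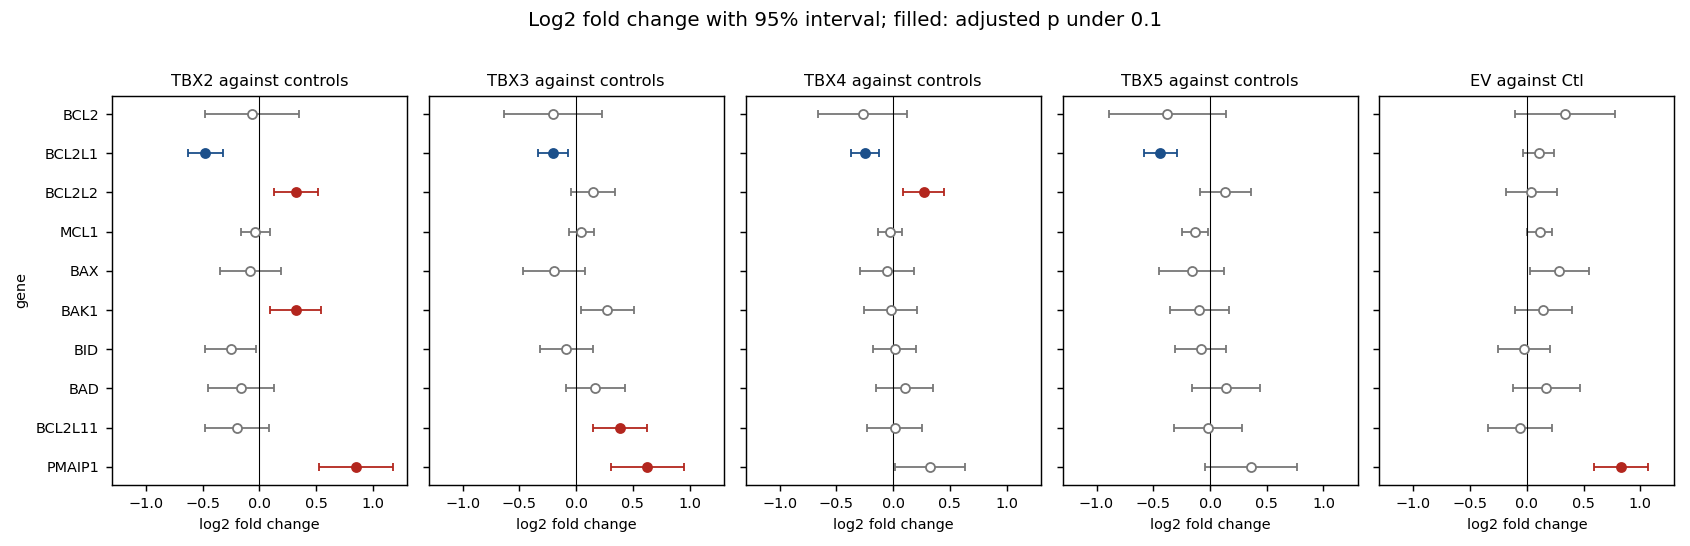
Log2 fold change (horizontal axes) with its 95% interval for the 10 members (vertical axis) in each TBX group against the controls and in EV against Ctl. The intervals use a normal quantile and can be narrower than the test allows. Filled points passed an adjusted p of 0.1 by edgeR's quasi-likelihood test, red for higher and blue for lower. BCL2L1 is filled in all 4 TBX panels, and PMAIP1 is the only filled point in EV against Ctl.

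The 4 TBX groups were also set against each other, in a single model of the 18 libraries. Of the members, 4 differed among the 4 plasmids, where 22.7% of all genes did: PMAIP1 (edgeR adjusted p 0.00639), BCL2L11 (edgeR adjusted p 0.0481), BCL2L1 (edgeR adjusted p 0.0533) and BAK1 (edgeR adjusted p 0.0941). PMAIP1 was called under every alternative but unadjusted library totals, which called none. BCL2L11 and BAK1 were lost with DESeq2, BCL2L1 and BAK1 at an FDR of 0.05 and with library totals without ENSG00000266658, BCL2L1 with the share of that gene as a covariate, and BAK1 without the library labelled 4c-TBX5 (edgeR adjusted p 0.145). BAK1 was also lost without replicate b of Ctl, and without any single library of EV or TBX5. It was lost as well without replicate a or b of TBX2, or a or c of TBX3. BCL2L1 was lost without replicate a or c of TBX2 or of TBX3. BCL2L11 was lost without replicate b of TBX2, or b or c of TBX3. Between single plasmids, TBX2 and TBX3 differed in 2 members, where 15.5% of all genes differed. BCL2L11 was lower with TBX2 than with TBX3 by 0.58 ± 0.160 on the log2 scale (log2 fold change -0.58, edgeR adjusted p 0.0163), and BCL2L1 likewise (-0.27 ± 0.088, edgeR adjusted p 0.0457). TBX2 and TBX4 differed in 2 (12.3% of all genes). PMAIP1 was higher with TBX2 by 0.52 ± 0.117 (edgeR adjusted p 0.00436) and BCL2L1 was at -0.23 ± 0.086 (edgeR adjusted p 0.0932). Without the library labelled 4c-TBX5 these were 0.49 (edgeR adjusted p 0.0205) and -0.25 (edgeR adjusted p 0.123). TBX2 and TBX5 differed in 1 (12.1% of all genes), PMAIP1, higher with TBX2 by 0.49 ± 0.131 (edgeR adjusted p 0.0162). No member was called by edgeR between TBX3 and TBX4 (9.98% of all genes), TBX3 and TBX5 (7.41%) or TBX4 and TBX5 (0.539%), where 3, 4 and 1 members had an unadjusted p under 0.05. DESeq2 was not run for single pairs.

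Genes around the family were described from lists of other family members, caspases, inhibitors of apoptosis, death receptors, mitochondrial partners, turnover factors and regulators. The shares of all genes called higher and lower, beside which each list count stands, were 17.0% and 15.6% with TBX2, 8.47% and 6.40% with TBX3, 6.98% and 6.07% with TBX4, and 6.56% and 6.12% with TBX5. Of 14 further BCL2 family genes, 10 were tested, and 2 rose with TBX2 and 1 with TBX3, shares near those of all genes. BIK, a BH3-only gene, rose by 1.14 ± 0.374 with TBX2 (edgeR adjusted p 0.0266), although its libraries overlapped the controls. BMF, another BH3-only gene, rose by 0.93 ± 0.200 with TBX3 (edgeR adjusted p 0.00339), with all 3 libraries above the controls. BBC3, which encodes the BH3-only protein PUMA, did not pass with any plasmid (edgeR adjusted p 0.208 to 0.792). BCL2L13 rose by 0.19 ± 0.069 with TBX2 (edgeR adjusted p 0.0469).

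Downstream of the mitochondria, 14 of 15 apoptosome and caspase genes were tested. With TBX2 and with TBX3, 3 fell (15.6% and 6.40% of all genes), and with TBX5, 2 rose (6.56% of all genes). CASP8, the initiator that cleaves BID, fell by 0.50 ± 0.120 with TBX3 (edgeR adjusted p 0.00840), and CYCS, cytochrome c, fell by 0.23 ± 0.058 with TBX3 (edgeR adjusted p 0.0125). ENDOG, a mitochondrial nuclease, fell by 1.23 ± 0.328 with TBX2 (edgeR adjusted p 0.00740), with libraries that overlapped the controls.

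Of 8 inhibitors of apoptosis, 7 were tested, and 2 rose with TBX2 (17.0% of all genes), namely BIRC3 by 0.53 ± 0.079 (edgeR adjusted p 2.68e-05) and BIRC2 by 0.28 ± 0.061 (edgeR adjusted p 0.00133), both of which encode ubiquitin ligases of TNF signalling. BIRC3 also rose with TBX4 by 0.24 ± 0.073 (edgeR adjusted p 0.0399, and 0.133 without the library labelled 4c-TBX5). In EV over Ctl it rose by 0.28 ± 0.063 (edgeR adjusted p 0.0819). The TBX values are against EV and Ctl pooled, and a rise of BIRC3 over EV alone was not tested. NAIP and CFLAR did not pass with any plasmid. Of 11 death receptor genes, 9 were tested. With TBX2, 3 rose and 2 fell (17.0% and 15.6% of all genes), with TBX3, 2 rose (8.47%), and with TBX4, 1 fell (6.07%), a call lost without the library labelled 4c-TBX5. TNFRSF10B, the TRAIL receptor DR5, rose by 0.26 ± 0.081 with TBX2 (edgeR adjusted p 0.0200) and by 0.32 ± 0.073 with TBX3 (edgeR adjusted p 0.00557). The decoy receptors TNFRSF10D, with TBX3, and TNFRSF10C, with TBX2, rose by 0.51 ± 0.080 (edgeR adjusted p 0.000160) and 0.90 ± 0.253 (edgeR adjusted p 0.0109). TNFRSF1A, the main TNF receptor, fell by 0.37 ± 0.069 with TBX2 (edgeR adjusted p 0.000343).

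Of 10 mitochondrial pore genes and BCL2 partners, 2 rose and 5 fell with TBX2 (17.0% and 15.6% of all genes), 1 rose and 2 fell with TBX3 (8.47% and 6.40%), 1 fell with TBX4 (6.07%) and 2 fell with TBX5 (6.12%). MTCH2, the mitochondrial receptor of truncated BID, fell with each plasmid, by 0.36 ± 0.063, 0.30 ± 0.062, 0.21 ± 0.057 and 0.35 ± 0.075 with TBX2, TBX3, TBX4 and TBX5 (edgeR adjusted p 0.000167, 0.00290, 0.0194 and 0.00501), and all its TBX libraries were below all controls. Without the library labelled 4c-TBX5, MTCH2 still fell with TBX4 (-0.23, edgeR adjusted p 0.0420). VDAC1, a channel of the outer membrane, fell by 0.30 ± 0.060 with TBX2 (edgeR adjusted p 0.000655). BAG3, a co-chaperone that binds BCL2, rose by 0.69 ± 0.074 with TBX3 (edgeR adjusted p 9.94e-07), and BECN1, an autophagy protein that binds BCL2, rose by 0.34 ± 0.094 with TBX2 (edgeR adjusted p 0.0104).

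Of 10 genes for the turnover or sequestration of family proteins, 1 rose and 2 fell with TBX2 (17.0% and 15.6% of all genes), 1 rose with TBX3 (8.47%), and 1 fell with each of TBX4 and TBX5 (6.07% and 6.12%). At so few genes these shares are near those of all genes. USP9X, which removes ubiquitin from MCL1, fell by 0.31 ± 0.056 with TBX2, 0.20 ± 0.050 with TBX4 and 0.19 ± 0.054 with TBX5 (edgeR adjusted p 0.000270, 0.0131 and 0.0337), and stood at 0.00 ± 0.053 with TBX3. The TBX4 decrease of USP9X passed without the library labelled 4c-TBX5 (-0.20, edgeR adjusted p 0.0534). HUWE1, a ubiquitin ligase of MCL1, fell by 0.14 ± 0.061 with TBX2 (edgeR adjusted p 0.0905). DYNLL2, the light chain that holds BMF, rose by 0.49 ± 0.097 with TBX2 (edgeR adjusted p 0.000691) and by 0.37 ± 0.097 with TBX3 (edgeR adjusted p 0.0160). MARCH5, a mitochondrial ubiquitin ligase, did not pass with any plasmid (edgeR adjusted p 0.107 to 0.949).

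Of 18 transcriptional regulators of the family, 16 were tested, and 7 rose and 2 fell with TBX2 (17.0% and 15.6% of all genes), 6 rose and 1 fell with TBX3 (8.47% and 6.40%), 2 rose with TBX4 (6.98%), and 2 rose and 1 fell with TBX5 (6.56% and 6.12%). Stress factors were among those that rose. ATF3 rose by 1.74 ± 0.171 with TBX2 and by 1.71 ± 0.175 with TBX3 (edgeR adjusted p 8.44e-08 and 4.77e-07), and it stood at 0.01 ± 0.199 with TBX4 and 0.28 ± 0.235 with TBX5. DDIT3, which encodes the endoplasmic reticulum stress factor CHOP, rose by 2.01 ± 0.165, 1.63 ± 0.164, 0.62 ± 0.165 and 0.59 ± 0.210 with TBX2, TBX3, TBX4 and TBX5 (edgeR adjusted p 5.40e-09, 4.19e-07, 0.0183 and 0.0863). Without the library labelled 4c-TBX5, DDIT3 rose by 0.63 with TBX4 (edgeR adjusted p 0.0436). JUN rose by 0.78 ± 0.114 with TBX2 and by 1.24 ± 0.109 with TBX3 (edgeR adjusted p 2.23e-05 and 4.10e-08), and IRF1 rose by 0.64 ± 0.112 with TBX2 (edgeR adjusted p 0.000167). ATF3 and DDIT3 were also higher in EV than in Ctl, by 0.81 ± 0.191 and 0.96 ± 0.122 (edgeR adjusted p 0.0908 and 9.74e-05), as PMAIP1 was. Their values with the TBX plasmids are against EV and Ctl pooled, and a rise over EV alone was not tested for them. DESeq2 called 7 of the 16 regulators higher and 1 lower with TBX2, and 6 and 1 with TBX3. It called 1 higher with TBX4, 1 higher and 1 lower with TBX5, and 1 higher in EV over Ctl. Of the 16 tested regulators, 12 differed among the 4 plasmids, where 22.7% of all genes did, and ATF3, DDIT3, JUN and IRF1 were among them. These were named for the smallest p over the TBX comparisons, so their differences are no separate evidence.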

How the data were processed

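The paired reads were demultiplexed with bcl2fastq 1.8.4, mapped by STAR 2.3.0 on GRCh37 and assigned by the authors to Ensembl genes in featureCounts, whose defaults were kept and ignore strand. The authors deposited these counts unnormalized for 18 libraries of 7365221 to 11743179 counts. No molecular identifiers are named in the sources, so that floors cover counting error only. Groups came from the labels. The members, lists and tests were chosen with earlier results of these data known.

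Following the study's filter and threshold, a gene was tested if at least 10 libraries held over 5 counts, and an adjusted p under 0.1 was called. Each TBX group was compared with the 6 pooled controls in its own fit, EV with Ctl, and the 4 TBX groups in 1 fit of 18 libraries, by the quasi-likelihood test of edgeR 4.0.16 (R 4.3.3) with TMM scaling and Benjamini-Hochberg adjustment. The SE was obtained by dividing the size of the log2 fold change by √F. The 95% intervals use this SE with a normal quantile, so they can be narrower than the test allows. RPKM used canonical transcript lengths (GENCODE on GRCh37), and 121 of 122 listed symbols were matched. Correlations used log2 CPM with a prior count of 2. The test was tried on simulated counts in which 200 genes were changed. From each list, the 4 genes with the smallest p over the 4 TBX comparisons are named, and for similar patterns the 3 genes with the highest Pearson's r.

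Alternatives were DESeq2 1.42.0, its size factors, library totals with and without ENSG00000266658, no filter, a minimum of 10 counts throughout, a replicate block by letter, GC offsets with and without it, the share of ENSG00000266658 as a covariate, EV or Ctl alone, 1 edgeR fit, an FDR of 0.05, and leaving out each library, which for the listed genes and plasmid pairs, chosen after seeing the data, was done only for replicate c of TBX4. Some listed genes are not reported here by name. Protein levels and viability were not analysed here.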

Additional observations from a re-analysis of the deposited data

Results flagged for a closer look

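The response to the 4 TBX plasmids differed for 4 members, by edgeR's quasi-likelihood test of the differences among the TBX groups in 1 fit of 18 libraries. PMAIP1 had an adjusted p of 0.00639 by edgeR, with its highest level under TBX2 at 17.7 ± 0.620 CPM and its lowest under TBX4 at 12.3 ± 0.802 CPM (SD, n = 3 each). BCL2L11 had an adjusted p of 0.0481 by edgeR, with 8.13 ± 0.372 CPM under TBX3 and 5.57 ± 0.989 CPM under TBX2. BCL2L1 had an adjusted p of 0.0533 by edgeR, with 36.9 ± 4.78 CPM under TBX2 and 44.6 ± 3.24 CPM under TBX3. BAK1 had an adjusted p of 0.0941 by edgeR, with 11.1 ± 0.966 CPM under TBX2 and 8.42 ± 0.623 CPM under TBX5. Among the 6 controls, no library of any member stood apart from the rest by Dixon's test. The BAK1 and BCL2L11 differences were lost with DESeq2, and those of BAK1 and BCL2L1 at an FDR of 0.05. Of the 4 differences, only that of PMAIP1 was kept in every fit that left out 1 library.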

How the results depend on the processing

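Of the 10 members, 4 were called for TBX2, 3 for TBX3, 2 for TBX4 and 1 for TBX5, 1 in EV against Ctl, and 4 among the 4 TBX groups. With DESeq2, these counts were 3 with TBX2, 1 with TBX3, 1 with TBX4 and 2 among the TBX groups. With library totals, edgeR called 1 with TBX2, 0 with TBX3, 0 with TBX5 and 0 among the TBX groups, with 1, 2 and 2 members at an unadjusted p under 0.05 in these last 3, and the log2 fold change of BCL2L1 with TBX4 turned to 0.011. Library totals without ENSG00000266658 gave 1 with TBX4 and 2 among the TBX groups. Its share as a covariate gave 5 with TBX2, 1 with TBX4 and 3 among the TBX groups. EV alone gave 3 with TBX2, 2 with TBX3 and 1 with TBX4, and Ctl alone 1 with TBX3, 1 with TBX4 and 2 with TBX5. An FDR of 0.05 gave 2 with TBX3, 1 with TBX4 and 2 among the TBX groups, and 1 edgeR fit of all libraries gave 3 with TBX4 and 2 with TBX5. No filter gave 3 with TBX2 and 2 with TBX3. The other counts under these alternatives were unchanged, though not always the members called. Leaving out each library in turn gave 3 to 5 with TBX2, 2 to 3 with TBX3, 1 to 3 with TBX4, 1 to 2 with TBX5, 1 in EV against Ctl and 1 to 4 among the TBX groups. With TBX4, 1 was left without replicate a or c of TBX4 or b of Ctl. Among the TBX groups, 1 was left without replicate c of TBX3, and 2 without replicate a or b of TBX2 or replicate a of TBX3. With TBX5, MCL1 was the added call, without replicate a (-0.18, edgeR adjusted p 0.0987). Where no cause is given, it was not tested. The labels do not say that a letter marks a shared source, and deviations of same-letter libraries had a mean correlation of 0.00043 over 45 pairs, so the letters were not taken as pairing. As a hint from the data, 10 of 18 libraries correlated best with their own letter. The replicate block left the counts at 4, 3, 2, 1, 1 and 4. Over single members and all alternatives, 33 calls were lost with their sign kept, and 1, BCL2L1 with TBX4 under library totals, was lost with its sign changed. Beside these, 12 were gained and 1044 values kept their side of the threshold, some of which, never called, changed sign. Depth limits BCL2 most, with 13 to 46 counts per library.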
